A study of Sus scrofa with 6 samples.

Results

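The enzymes described here carry squalene epoxide through lanosterol to cholesterol. Their 9 genes, LSS, CYP51A1, TM7SF2, MSMO1, NSDHL, HSD17B7, EBP, SC5D and DHCR7, were chosen by name, 8 by the gene name in the deposited table and EBP by its gene description. They account for 9 of the 31908 Ensembl pig gene IDs listed and for 19 listed transcripts. RNA came from IPEC-J2, an established line of pig small intestinal epithelial cells, in 6 libraries: 3 CON libraries, whose cells received PBS, and 3 CDCA libraries, whose cells received chenodeoxycholic acid, a primary bile acid, at 50 μM, both for 24 h. All libraries come from this line, with 1 dose and 1 time point. The study calls the libraries of a group biological replicates, but neither it nor the labels say that they came from separate cultures, so a p-value here measures only the spread between these libraries.

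Cells make cholesterol from acetyl units through mevalonate and squalene. Lanosterol synthase closes the chain into the first sterol, and the enzymes after it strip methyl groups, move or reduce double bonds and finish the ring. These enzymes sit in membranes of the endoplasmic reticulum, and many of their genes are induced together by the SREBP transcription factors when sterols run low. Cholesterol is in turn the starting material of the bile acids, to which CDCA belongs.

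The values are TPM (a transcript's share of all transcripts in a library, scaled to a total of 1000000), summed over the listed transcripts of a gene. TPM takes account of transcript length, so levels can be compared between genes, but TPM keep no count of the reads behind a value. The study gives the reads per library, which were not used here. The listed TPM summed to between 351770 and 366073 per library, where a full library sums to 1000000, and a few housekeeping genes had almost no listed TPM, among them CCT2 with 0.05 to 0.15 TPM, which was picked with its values known. A low value therefore says only what is listed, and an order of genes by level compares only their listed TPM. Of the 8 epithelial markers, EPCAM, KRT8, KRT18 and CLDN4 were listed between 64.61 and 862.66 TPM in every library. The summed level of the 7 epithelial markers listed was 624 to 648 TPM in CON and 1182 to 1322 TPM in CDCA, with CLDN4 going from 225 to 806 TPM, and the part of this difference in the results on the sterol enzymes was not tested. CDH1, VIL1 and CDX2 lay under 1 TPM in every library, although they too mark this cell type, and KRT19 was not found by symbol. The summed level of 7 fibroblast markers was 1.35 to 1.83 TPM in CON and 1.00 to 1.15 TPM in CDCA, with LUM at 0 in every library. The 4 blood markers listed, of 5, summed to 1.22 to 2.49 TPM in CON and 1.84 to 2.05 TPM in CDCA, with HBB at 0 in every library, and the 3 endothelial markers listed, of 4, summed to 2.20 to 2.69 and 1.87 to 2.33 TPM. The 4 hepatocyte markers summed to 2.20 to 2.56 TPM in CON and 1.38 to 1.84 TPM in CDCA, most of it APOA1, with SERPINA1 at 0.

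In CDCA, 3 of the 9 sterol enzymes fell: LSS to 0.260 times its mean in CON, EBP to 0.502 times and HSD17B7 to 0.723 times. None rose. CYP51A1, the most abundant of the 9, along with SC5D and NSDHL, did not pass the test, and TM7SF2, MSMO1 and DHCR7 were listed too low to be tested. Differences were tested by limma on log2(TPM + 1) for the 8708 genes whose mean across the 6 libraries reached 1 TPM. A gene passed the test where its FDR, the p-value adjusted by the Benjamini-Hochberg method over all these genes, was under 0.05, and it was called where its log2 fold change was also over 1 in size. Of the 6 enzymes tested, 3 passed the test downward and 0 upward, where 23.9% of all tested genes passed downward and 29.3% upward. Only LSS was called lower, 1 of 6, where 3.9% of all tested genes were. None was called higher, where 3.51% of all tested genes were. The median log2 fold change of the 6 was -0.31, beside 0.05 for all tested genes.

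**Figure D1:**
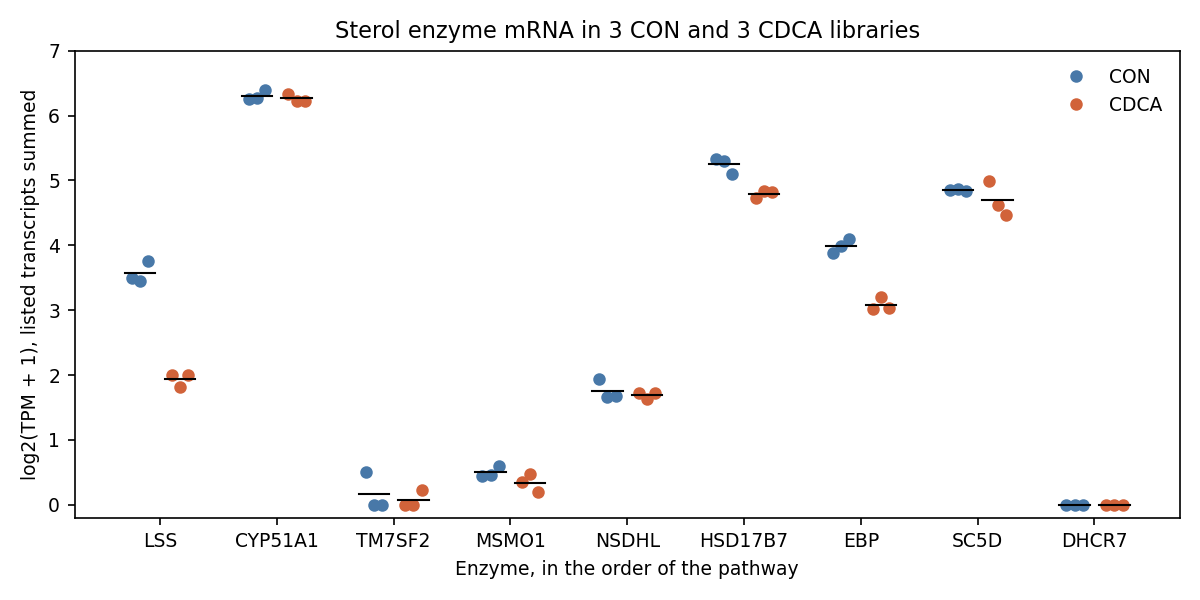
Level of each of the 9 sterol enzymes as log2(TPM + 1), summed over listed transcripts, in pathway order. Each point is a library (blue, 3 CON; orange, 3 CDCA) and each line a group mean. The CDCA points lie below all CON points for LSS, HSD17B7 and EBP, and the groups overlap for the other 6 enzymes.

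CYP51A1 led with 78.3 ± 4.3 TPM (SD, n = 3), ahead of HSD17B7 with 37.1 ± 3.2 TPM (SD, n = 3), SC5D with 28.0 ± 0.28 TPM (SD, n = 3), EBP with 15.0 ± 1.1 TPM (SD, n = 3), LSS with 10.9 ± 1.4 TPM (SD, n = 3) and NSDHL with 2.40 ± 0.38 TPM (SD, n = 3). No neighbours among these 6 overlapped in their CON libraries. In CDCA the order was the same, but HSD17B7 (25.61 to 27.63 TPM) and SC5D (21.13 to 30.81 TPM) overlapped. LSS and NSDHL, which were far apart in CON, lay close in CDCA, at 2.52 to 3.01 and 2.09 to 2.31 TPM. CYP51A1 held 45.4% ± 1.7 (SD, n = 3) of the summed TPM of the 9 enzymes in CON and 53.9% ± 0.60 (SD, n = 3) in CDCA. That sum was 170.23, 170.81 and 175.69 TPM in the CON libraries and 149.1, 138.68 and 134.94 TPM in the CDCA libraries, a ratio of 0.818. Without CYP51A1 the ratio was 0.691.

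LSS (ENSSSCG00000021418) encodes lanosterol synthase, which folds squalene epoxide into lanosterol and so makes the first sterol of the pathway. Its level was 10.32, 9.9 and 12.51 TPM with PBS and 2.99, 2.52 and 3.01 TPM with CDCA. All 3 CDCA libraries lay well below the lowest CON library. Its mean fell by 74.0% (log2 fold change -1.63 ± 0.11 SE, limma FDR 4.83e-05).

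CYP51A1 (ENSSSCG00000015311) encodes the cytochrome that removes a methyl group from lanosterol by oxidation, and is the target of azole antifungals in its fungal form. The CON libraries held 75.16, 76.54 and 83.16 TPM, the CDCA libraries 80.03, 74.14 and 73.67 TPM. The groups overlapped, and the log2 fold change was -0.04 (95% CI -0.17 to 0.09, limma FDR 0.548), an interval that leaves out a fall of the size seen for LSS, EBP or HSD17B7. With totals of the listed TPM without the mtDNA-encoded mRNAs, CYP51A1 passed the test at -0.19 (limma FDR 0.0365). These mRNAs held 14.3% of the listed TPM in CON and 3.20% in CDCA. With the libraries scaled instead to an equal median ratio over genes, CYP51A1 did not pass (-0.09, limma FDR 0.23).

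The next step, reduction of the double bond left by CYP51A1, can be done by TM7SF2 or by the lamin B receptor, LBR, a nuclear envelope protein with a sterol reductase domain. TM7SF2 (ENSSSCG00000013004), with 1 listed transcript, stood at 0.42, 0 and 0 TPM in CON, against 0, 0 and 0.17 TPM in CDCA, too low for the test. LBR is not among the 9 and was picked with its values known: 20.27, 20.38 and 18.05 TPM in CON, against 12.13, 12.01 and 13.19 TPM in CDCA. Its groups did not overlap, and it fell (log2 fold change -0.61 ± 0.07 SE, limma FDR 0.000434).

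Removal of the pair of methyl groups on the first ring takes MSMO1, NSDHL and HSD17B7 in turn: an oxidase, a decarboxylating dehydrogenase and a ketone reductase. MSMO1 (ENSSSCG00000008857) had 1 listed transcript, at 0.36, 0.37 and 0.52 TPM in CON and 0.27, 0.39 and 0.15 TPM in CDCA. It was below the level required for the test, and its groups overlapped. NSDHL (ENSSSCG00000012758) gave 2.84, 2.17 and 2.19 TPM in CON, against 2.29, 2.09 and 2.31 TPM in CDCA. CON replicate 1 stood above the other 5 libraries, which overlapped. The log2 fold change was -0.07 (95% CI -0.34 to 0.20, limma FDR 0.634).

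HSD17B7 (ENSSSCG00000006337) was the second most abundant of the 9, at 39.39, 38.57 and 33.47 TPM in CON and 25.61, 27.63 and 27.27 TPM in CDCA. The highest CDCA value was under the lowest CON value. It fell (log2 fold change -0.45 ± 0.07 SE, limma FDR 0.00206), the smallest of the 3 falls.

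EBP (ENSSSCG00000032768) encodes the isomerase that shifts a double bond within the sterol ring and also binds emopamil, from which it takes its name. The CON libraries held 13.81, 14.96 and 16.1 TPM of it and the CDCA libraries 7.1, 8.2 and 7.23 TPM. The groups were well apart. It fell (log2 fold change -0.91 ± 0.08 SE, limma FDR 0.000167), just under the limit for a call. With listed totals without the mtDNA-encoded mRNAs it was called, at -1.05, but with equal median ratios it was not, at -0.95. Its 1 listed transcript is the whole of its value.

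SC5D (ENSSSCG00000028517), the desaturase that acts on lathosterol, gave 27.93, 28.3 and 27.74 TPM in CON, against 30.81, 23.71 and 21.13 TPM in CDCA. The CON libraries were almost equal, while CDCA replicate 1 lay above all of them and the other 2 CDCA libraries below. The log2 fold change was -0.16 (95% CI -0.46 to 0.14, limma FDR 0.321). Without CDCA replicate 1 it was -0.31 and passed the test (limma FDR 0.0134), and without CDCA replicate 3 it was -0.05 (limma FDR 0.746). DHCR7 (ENSSSCG00000021181), the reductase that makes cholesterol from the product of SC5D and whose loss causes Smith-Lemli-Opitz syndrome, had 1 transcript, listed at 0 in all 6 libraries.

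Of the 6 enzymes tested, 3 had groups that did not overlap, LSS, HSD17B7 and EBP, each with CDCA below CON, where 27.8% of all tested genes were so placed, and 0 had CDCA above CON, where 33.8% were. The mtDNA-encoded mRNA, whose share differed between the groups as given above, enters the totals to which TPM are scaled. The listed TPM are only part of those totals, and leaving this mRNA out of the full totals was not tested. Scaling to the listed TPM without it took the genes called from 306 higher and 340 lower to 221 higher and 449 lower. The same scaling moved the median log2 fold change of all tested genes by -0.13, from 0.05 to -0.08. Relative to that median, the log2 fold changes were -1.67 for LSS, -0.96 for EBP, -0.52 for HSD17B7, -0.23 for SC5D, -0.11 for CYP51A1 and -0.09 for NSDHL.

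**Figure D2:**
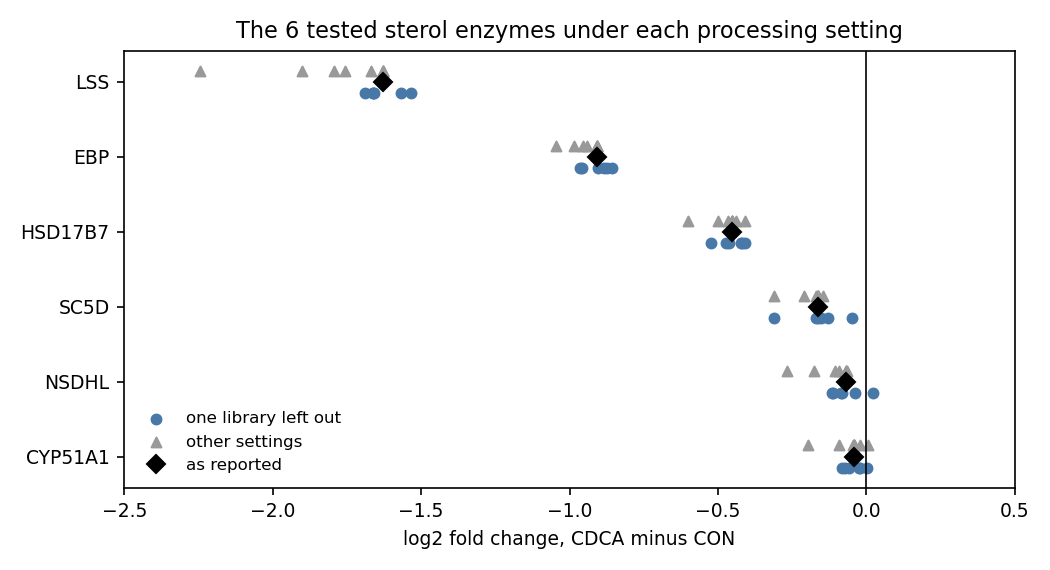
Log2 fold change (CDCA minus CON) of the 6 tested sterol enzymes as reported (diamonds), with 1 library left out (circles) and under the other processing settings (triangles). LSS, EBP and HSD17B7 stay below 0 throughout, between -2.25 and -1.54, between -1.05 and -0.86 and between -0.60 and -0.41 in turn, whereas CYP51A1 and NSDHL reach past 0.

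The fall of LSS was not shared by all of its 5 listed transcripts. They carry no names as deposited, and are numbered here by their mean over the 6 libraries. Transcript 1 went from 6.99, 6.53 and 8.6 TPM in CON to 0.95, 0.51 and 0.84 TPM in CDCA, a ratio of 0.104. It made up 81.9% of the fall in the summed TPM of the gene. Transcript 2 went from 1.82, 1.46 and 2.04 to 0.65, 0.55 and 0.79 TPM, a ratio of 0.374. Both passed the test when each listed transcript was tested by itself, with log2 fold changes of -2.25 (limma FDR 0.00012) and -0.73 (limma FDR 0.0085). Transcript 3 went from 1.18, 1.2 and 1.15 to 0.93, 0.94 and 1.05 TPM and did not pass (log2 fold change -0.14, 95% CI -0.44 to 0.16, limma FDR 0.395). Transcripts 4 and 5 stayed under 1 TPM in every library, with the mean of transcript 5 at 0.05 TPM in CON and 0.16 TPM in CDCA.

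Transcript 1 thus held 67.7%, 66.0% and 68.7% of the listed LSS TPM with PBS and 31.8%, 20.2% and 27.9% with CDCA. The groups did not overlap (p = 0.1 by a two-sided exact permutation test, which cannot go lower with 3 against 3 libraries, and 0.25 adjusted over the 5 enzymes so compared, a comparison added after the data were seen). For NSDHL, whose gene sum did not pass the test, transcript 1 was at 1.98, 1.34 and 1.47 TPM in CON and 1.23, 1.08 and 1.13 TPM in CDCA, while its transcript 2 was at 0.86, 0.83 and 0.72 TPM in CON and 1.06, 1.01 and 1.18 TPM in CDCA. Transcript 1 did not pass by itself (log2 fold change -0.27, 95% CI -0.61 to 0.08, limma FDR 0.181), and transcript 2 was too low for the test. Transcript 1 held 66.2% ± 4.1 (SD, n = 3) of the listed NSDHL TPM with PBS and 51.4% ± 2.4 (SD, n = 3) with CDCA (exact permutation p = 0.1, 0.25 adjusted). RSEM divides reads that transcripts share, so the single transcripts are less certain than their sum.

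In HSD17B7 both transcripts above 0 were lower in CDCA and passed the test: transcript 1 with a ratio of 0.744 (limma FDR 0.0176) and transcript 2 with a ratio of 0.670 (limma FDR 0.037). Transcript 1 held 70.8% ± 2.5 (SD, n = 3) of the gene in CON and 72.8% ± 5.9 (SD, n = 3) in CDCA (exact permutation p = 0.8). For CYP51A1 this share was 66.0% ± 3.9 (SD, n = 3) and 68.5% ± 6.4 (SD, n = 3) (exact permutation p = 0.6), and for SC5D 66.6% ± 6.1 (SD, n = 3) and 66.1% ± 5.5 (SD, n = 3) (exact permutation p = 1). Of the 19 transcripts of the 9 enzymes, 11 had a mean of at least 1 TPM; 5 of them passed the test downward and 0 upward, where 18.7% and 23.1% of the 12205 transcripts tested did.

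**Figure D3:**
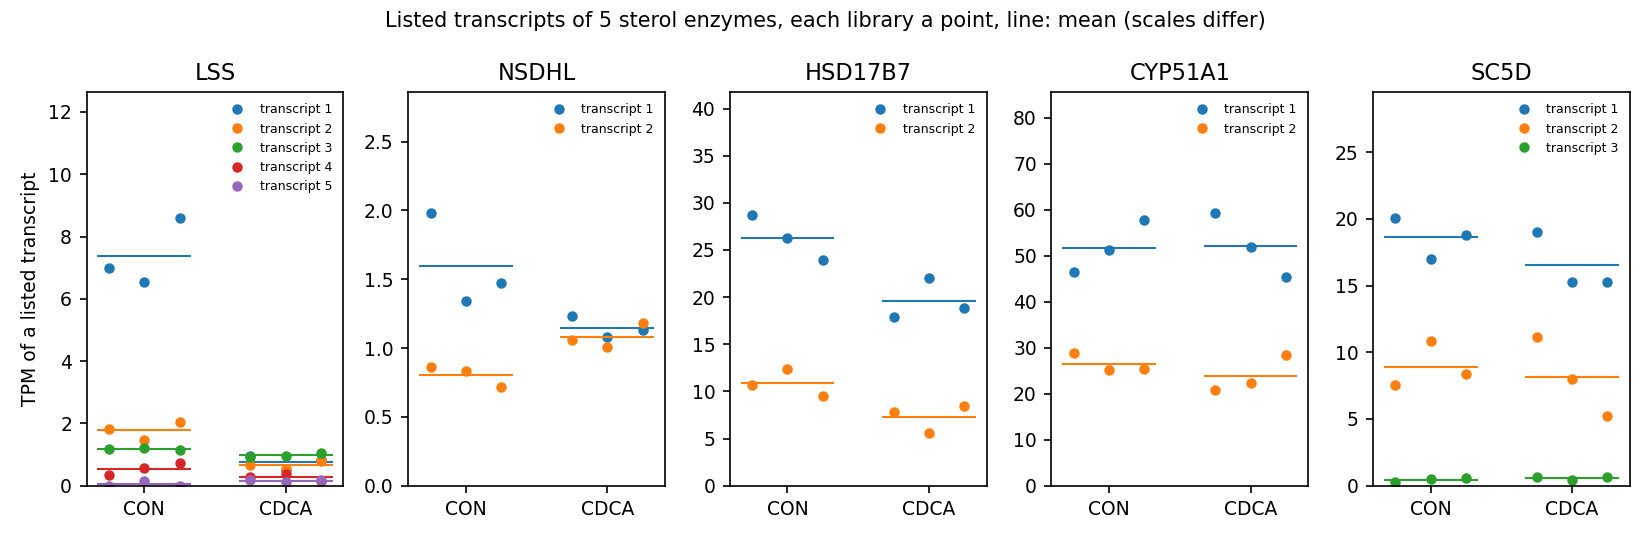
TPM of each listed transcript above 0 of 5 sterol enzymes, 1 panel a gene with its own scale from 0. Each point is a library and each line a group mean. LSS transcript 1 drops from between 6.53 and 8.6 TPM in CON to between 0.51 and 0.95 TPM in CDCA, and the NSDHL transcripts come together.

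Of 10 partners of the sterol steps (LBR, electron donors and proteins that bind the enzymes or their sterols), 9 were tested: 4 fell, where 23.9% of all tested genes did, 2 rose, where 29.3% did, and 3 did not pass. The median log2 fold change was -0.32. Beside LBR, those that fell were CYB5R3 (-0.32), CYB5B (-0.40) and TMEM97 (-0.56), the first a reductase of cytochrome b5 and the second a form of that electron carrier, named with TMEM97 after their values were seen.

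POR passes electrons to CYP51A1 and other cytochromes of the endoplasmic reticulum. It rose from 0.81, 5.24 and 3.89 TPM in CON to 10.02, 10.54 and 10.41 TPM in CDCA, and was called higher (log2 fold change 1.57 ± 0.43 SE, limma FDR 0.0202). The CON libraries were far apart, with replicate 1 lowest. Without CON replicate 1 the log2 fold change was 1.04 (limma FDR 0.00153), and the FDR was 0.0560, 0.0596 and 0.0575 without CDCA replicate 1, 2 and 3. With no filter on low values the limma FDR of POR was 0.0555. PGRMC1, which binds cytochromes and was also picked with its values known, passed the test at 0.15 (limma FDR 0.0256). It was at -0.01 (limma FDR 0.896) with listed totals without mtDNA-encoded mRNA. Its FDR was over 0.05 in 7 of 14 other settings, among them those without CDCA replicate 2 or 3.

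Upstream, where acetyl units become squalene and its epoxide, 9 of 9 genes were tested. Of these, 7 fell and 0 rose, beside 23.9% and 29.3% of all tested genes, and 2 did not pass, around a median log2 fold change of -0.81. The 2 called lower were ACAT2, an acetyl-CoA thiolase, from 154.6, 155.3 and 141.12 TPM to 72.47, 69.9 and 74.94 TPM (log2 fold change -1.04, limma FDR 1.65e-05, but -0.92 and so not called by its highest listed transcript), and HMGCS1, from 38.96, 42.26 and 35.52 to 15.8, 16.59 and 18.28 TPM (-1.16, limma FDR 6.17e-05). The others that fell were MVD (-0.83), IDI1 (-0.97), FDPS (-0.37), FDFT1 (-0.78) and SQLE (-0.81), the first 4 of them picked with their values known. The limit for a call divides them narrowly: IDI1 was past it in 4 of 14 other settings, at -1.02 to -1.12, FDFT1 by its highest listed transcript (-1.05) and SQLE without CON replicate 3 (-1.03).

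SQLE makes the epoxide on which LSS acts. It went from 17.3, 19.34 and 11.41 TPM to 6.88, 8.63 and 10.23 TPM, with CON replicate 3 close to the highest CDCA library. Its FDR was 0.0161, and reached at most 0.0547 in the 3 fits without CON replicate 1, CON replicate 2 or CDCA replicate 1. FDPS (limma FDR 0.0495) was over 0.05 in 10 of 14 other settings (those of the closing section at the gene level, less the stricter filter), among them 5 of the 6 that left out a library, all but the one without CDCA replicate 1.

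**Figure D4:**
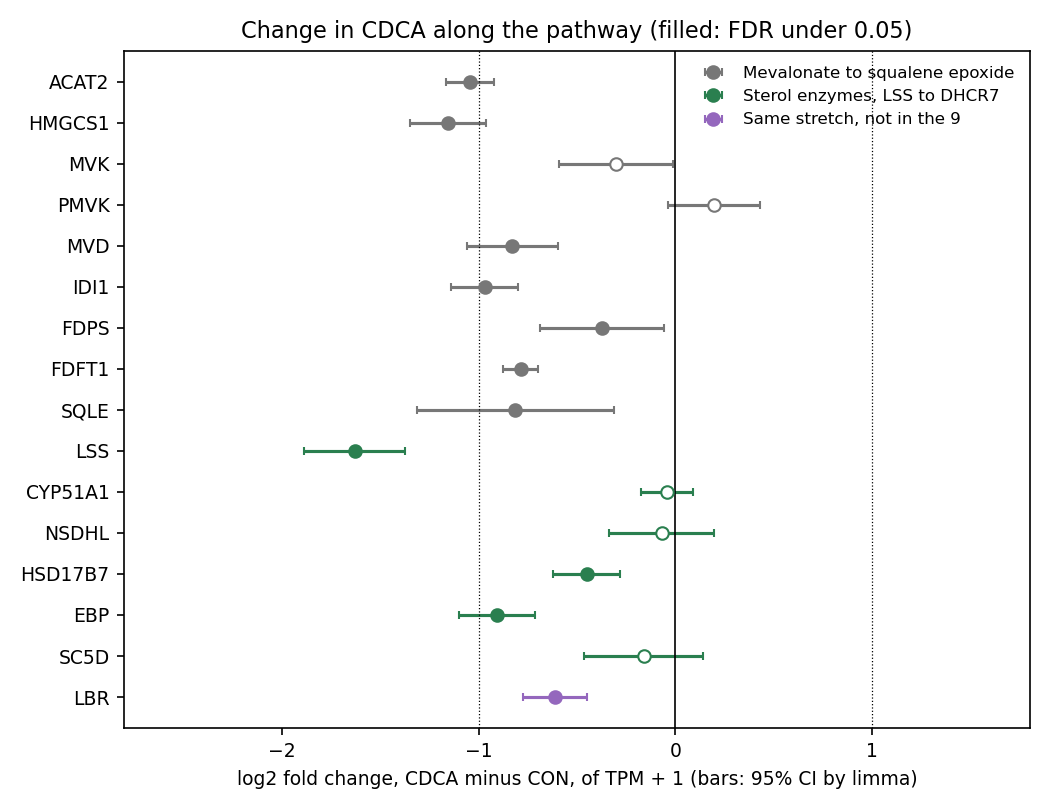
Log2 fold change of TPM + 1 (CDCA minus CON, points) with its 95% confidence interval by limma (bars) for the genes from acetyl units to squalene epoxide (grey), the 6 tested sterol enzymes (green) and LBR (purple). Filled points have an FDR under 0.05 and dotted lines mark a log2 fold change of 1 in size. LSS (-1.63) and HMGCS1 (-1.16) lie lowest, and the intervals of CYP51A1, NSDHL and SC5D hold 0.

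Of 11 genes of SREBP control and cholesterol uptake, 5 were tested: 2 fell, 1 rose and 2 did not pass, beside 23.9% lower and 29.3% higher among all tested genes, and the median log2 fold change was -0.32. MBTPS2 was not analysed here. SREBF1, which encodes SREBP-1, fell from 12.49, 13.43 and 14.98 TPM to 11.49, 10.99 and 9.65 TPM (-0.32, limma FDR 0.0228). Its FDR was over 0.05 in 5 of 14 other settings, namely without CON replicate 2, CON replicate 3 or CDCA replicate 3, with no filter and with the replicate number as a block. SREBF2, which encodes the form that acts most on cholesterol genes, was too low for the test, at 0.35, 0.41 and 0.07 TPM in CON against 0.03, 0.4 and 0.04 TPM in CDCA.

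INSIG1 and INSIG2 hold SREBP in the endoplasmic reticulum when sterols are plentiful. INSIG1 did not pass (-0.28, 95% CI -0.53 to -0.02, limma FDR 0.0644). It did with listed totals without mtDNA-encoded mRNA (-0.40, limma FDR 0.0207), with equal median ratios (limma FDR 0.0343) and by its highest listed transcript (limma FDR 0.0252). INSIG2 rose from 4.92, 4.69 and 4.18 TPM to 6.71, 6.49 and 6.92 TPM (0.46, limma FDR 0.00271). SCAP, the escort of SREBP, had a log2 fold change of -0.52 (limma FDR 0.151). It ranged from -0.79 without CDCA replicate 3, where it passed (limma FDR 0.03), to -0.35 without CON replicate 3 (limma FDR 0.367). SCAP also passed with the replicate number as a block (limma FDR 0.0383). HNF4A, a regulator of epithelial lipid genes, fell from 6.03, 5.73 and 6.16 TPM to 2.3, 3.53 and 3.26 TPM (-0.80, limma FDR 0.00223).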

How the data were processed

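RNA-seq libraries of CON and CDCA were sequenced on an Illumina instrument. RSEM was the authors' tool for abundance, and their deposited table holds TPM, rounded to 2 decimals or fewer, of 63041 transcripts. The aligner used for these pig gene IDs is not given in the sources used here: the submitters' processing notes name Bowtie 0.12.2 and a mouse build, which was not used. Groups and replicate numbers were taken from the sample labels. TPM were summed per gene ID. List genes were matched through a table of Ensembl IDs and symbols (15029 IDs), then the deposited name; 17501 IDs had a symbol, and where the sources differed (267 IDs) the former was used.

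CDCA was compared with CON in R 4.3.3 by the two-sided moderated test of limma 3.58.1 with an intensity trend, on log2(TPM + 1). A fold change on this scale understates that of a low gene. The authors used edgeR, which needs counts. The steps were tried on simulated data that held only changes over the limit for a call. Smaller changes, such as those of EBP and HSD17B7, were not covered by it. Zeros were kept as listed.

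The members and the lists were chosen with earlier results of these data known. Named were the 9 enzymes, the called genes of each list or else its 3 largest changes, and SREBF1, SREBF2, INSIG1, SQLE, NR1H4 and GPBAR1; others are said to have been named later. The results for 4 genes of these lists are not reported here, and the lists' counts leave them out. Alternatives were a pseudocount of 0.1 TPM, no filter or a mean of 5 TPM, 3 scalings, the highest listed transcript, each transcript by itself, no trend, the replicate number as a block and each library left out. No sequences or coordinates were analysed here.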

Additional observations from a re-analysis of the deposited data

How the results depend on the processing

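LSS, EBP and HSD17B7 kept their direction and passed the test in all 15 other settings at the gene level. LSS transcript 3 by itself did not pass (log2 fold change -0.14, limma FDR 0.395). With listed totals without mtDNA-encoded genes, 2 enzymes were called lower in place of 1, since EBP passed the limit. The ratio of the summed TPM of the sterol enzymes was then 0.736 in place of 0.818. With 1 library left out, that ratio lay between 0.794 and 0.835, 3 to 4 enzymes passed the test downward and 1 was called. With 1 library left out, the log2 fold change of CYP51A1 lay between -0.081 and 0.00087, that of NSDHL between -0.12 and 0.022 and that of SC5D between -0.31 and -0.05. CYP51A1 was at 0.0063 by its highest listed transcript, which is its transcript 1, and at 0.00087 without CON replicate 3. NSDHL was at 0.022 without CON replicate 1. None of these 3 values passed the test.

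The replicate number did not pair the libraries: the correlations of deviations from the group means were -0.0353, -0.0916 and -0.0509 for equal numbers, over 8708 genes. With the replicate number as a block, 309 genes were called higher and 343 lower, against 306 and 340, and 3 of the sterol enzymes passed the test downward with 1 called. With no filter, 22549 genes were tested, and MSMO1 (-0.16, limma FDR 0.322) and TM7SF2 (-0.09, limma FDR 0.734) did not pass. NSDHL was not tested at a mean of 5 TPM. A pseudocount of 0.1 TPM raised the genes called over all tested to 509 higher and 505 lower, and rescaling the listed TPM to 1000000 to 523 higher and 481 lower, of 10947 genes that then reached the filter. Over the 15 settings, 5 to 8 genes from mevalonate to squalene epoxide passed downward and 0 upward, and 4 to 5 partners of the sterol steps passed downward and 0 to 3 upward. TPM keep no read counts, so the counting error of the values near 0 was not estimated.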

Other observations

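Of 11 genes of sterol storage and transport, 10 were tested: 3 rose, 2 fell and 5 did not pass, counts near the 29.3% higher and 23.9% lower of all tested genes, with a median log2 fold change of 0.16. SOAT1, which esterifies cholesterol for storage, fell from 10.31, 9.96 and 8.53 TPM in CON to 4.21, 4.41 and 4.58 TPM in CDCA (-0.97, SE 0.09, limma FDR 0.000156). NPC1, which exports cholesterol from lysosomes, rose from 17.68, 18.98 and 17 TPM to 23.94, 25.13 and 23.2 TPM (0.41, limma FDR 0.00136), and OSBPL9, a lipid transfer protein, rose too (0.49, limma FDR 0.000722). The other genes past the test, NPC2 and NCEH1, named after their values were seen, had an FDR over 0.05 in 9 and 10 of 14 other settings. Leaving out a library was enough for NPC2 in each case but that of CDCA replicate 3, and for NCEH1 in every case.

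Of 9 genes of sterol efflux and targets of the oxysterol receptors LXR, 3 were tested and 2 rose, where 29.3% of all tested genes did: NR1H2, which encodes LXR-beta (from 30.94, 30.2 and 30.97 to 43.5, 45.39 and 45.41 TPM, 0.53, limma FDR 8.23e-05), and ABCA1, the cholesterol exporter (from 4.52, 4.18 and 4.18 to 5.52, 5.63 and 6.03 TPM, 0.35, limma FDR 0.00709). MYLIP, an LXR target, did not pass (0.08, limma FDR 0.637). The median of the 3 was 0.35, and nothing particular to this list is read from so few genes. NR1H3, which encodes LXR-alpha and was named after its values were seen, was too low for the test. It was at 0.77, 2.02 and 0.69 TPM in CON and 0.17, 0.45 and 0.63 TPM in CDCA.

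Of 7 genes of the machinery that degrades sterol enzymes, 6 were tested: 3 rose, 2 fell and 1 did not pass, beside 29.3% higher and 23.9% lower among all tested genes, with a median of 0.15. Nothing particular to this list is read from so few genes. UBXN8 rose from 2.76, 2.56 and 2.6 to 4.48, 4.77 and 4.52 TPM (0.62, limma FDR 0.000706). MARCHF6, which degrades squalene epoxidase, rose by less (0.43, limma FDR 0.000193, named after its value was seen). RNF145 fell (-0.64, limma FDR 0.0229), but its FDR was over 0.05 in 6 of 14 other settings. Among them were those without CON replicate 2 or 3 or CDCA replicate 2 or 3. RNF139, which passed upward, and UBE2J2, which passed downward, were named after their values were seen; the FDR of RNF139 was over 0.05 in 10 of 14 other settings, among them 5 that left out a library, all but the one without CON replicate 1.

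Of 12 oxysterol and bile acid genes, 2 were tested, too few to set beside those shares. CYP39A1, an oxysterol hydroxylase, rose from 1.29, 1.51 and 1.34 to 3.21, 2.61 and 2.51 TPM (0.66, limma FDR 0.00278), and HSD3B7, which acts on the sterol ring in bile acid synthesis, fell from 46.11, 45.81 and 44.25 to 28.5, 29.94 and 26.62 TPM (-0.66, limma FDR 0.000105). The bile acid receptors NR1H4 and GPBAR1 were listed at 0.08 to 0.19 and 0 to 0.76 TPM in these libraries, too low for the test.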
